A study of Mus musculus with 50 samples.

Results

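The genes described here are Pparg, Rxra, Cebpa, Cebpb, Cebpd, Ebf1, Ebf2, Zfp423 and Dmrt2, out of 58477 genes listed in the 3 count tables together. These 9 transcription factor genes were chosen by symbol, with earlier results of these data known. Peroxisome proliferator-activated receptor gamma, the product of Pparg, is a nuclear receptor that binds DNA as a pair with a retinoid X receptor such as Rxra and switches on the genes of lipid uptake, lipid storage and insulin response in fat cells. C/EBP beta and C/EBP delta act early in the making of a fat cell and turn on Pparg and Cebpa, after which these last factors keep each other expressed in the mature adipocyte. Ebf1, Ebf2 and Zfp423 act in the precursors that will become fat cells, and Zfp423 holds white adipocytes in their white state by restraining Ebf2. Dmrt2 encodes a factor of the DM domain family, best known in the mouse from the patterning of somites.

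The study asked what activation of neurons bearing GFRAL, the receptor of the stress hormone GDF15, does to transcripts in muscle and fat. All mice were males carrying hM3Dq, a designer receptor through which clozapine N-oxide (CNO) excites neurons, and all had received CNO at 1 mg/kg. Mice with Gfral Cre, in which the receptor is switched on in the Gfral cells, are called TG, and Cre-negative mice WT. The tissues were perigonadal fat, a white adipose depot here called pgWAT, taken 6 h after CNO (6 TG and 6 WT libraries) or 1 h after CNO (9 and 9), and the quadriceps muscle of clamped mice (10 and 10). No group without CNO was analysed here, and the sources used here do not give the age of the mice or the time after CNO for quadriceps. Cre driven by Gfral marks neurons of the hindbrain, so a difference in fat or muscle is described here as one between whole animals. Whether the designer receptor was present in fat or muscle was not tested.

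RNA was read by 3′ mRNA sequencing, which counts the ends of polyadenylated transcripts. Total gene counts lay between 9150496 and 12883462 per library in pgWAT at 6 h, between 976610 and 4852560 at 1 h and between 959980 and 2613672 in quadriceps, so the 6 h libraries were the deepest. Levels are in CPM, counts relative to the total of their library, after TMM scaling, a correction for differences in RNA composition. Changes are log2 of TG over WT with their standard error (SE), and a gene is called changed where the adjusted p of edgeR's quasi-likelihood test lay under 0.05 over all genes tested. Libraries with much liver, duct or heat shock transcript numbered 1 at 6 h (TG 2), 9 at 1 h and 2 in quadriceps (WT 2 and WT 10). Leaving them out kept 6 TG and 3 WT libraries at 1 h. The labels do not say that each library is a separate mouse, so p-values measure the spread between these libraries. In whole tissue, fewer cells of a type and less RNA per cell cannot be told apart.

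Of the 9 genes, 7 have RefSeq promoter sequences in the table used here, with 12 start sites on GRCm38.p6, each window running from 250 bases before the start to 50 after it. The promoters of the 3 genes whose TG libraries all lay below all WT libraries at 6 h are printed here, because these genes moved together. For Pparg the window is that of the third start site, where the adipocyte isoform begins (chr6:115421816-115422115, plus strand); Cebpa (chr7:35119043-35119342) and Dmrt2 (chr19:25672161-25672460) are also on the plus strand. Capitals mark matches on either strand to TTGCNNAA, a C/EBP motif.
Pparg: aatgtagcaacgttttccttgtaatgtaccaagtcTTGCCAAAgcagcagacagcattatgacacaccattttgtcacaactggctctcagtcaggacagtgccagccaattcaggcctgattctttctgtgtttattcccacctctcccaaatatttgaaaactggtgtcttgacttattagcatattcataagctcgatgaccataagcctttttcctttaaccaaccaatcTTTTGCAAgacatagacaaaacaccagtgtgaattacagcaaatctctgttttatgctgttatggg
Cebpa: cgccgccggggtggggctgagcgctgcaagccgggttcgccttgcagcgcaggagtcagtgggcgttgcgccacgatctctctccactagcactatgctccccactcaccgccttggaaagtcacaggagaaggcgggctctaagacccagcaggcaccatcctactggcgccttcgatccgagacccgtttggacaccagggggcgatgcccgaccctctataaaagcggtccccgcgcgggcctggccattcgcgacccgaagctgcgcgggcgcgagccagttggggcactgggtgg
Dmrt2: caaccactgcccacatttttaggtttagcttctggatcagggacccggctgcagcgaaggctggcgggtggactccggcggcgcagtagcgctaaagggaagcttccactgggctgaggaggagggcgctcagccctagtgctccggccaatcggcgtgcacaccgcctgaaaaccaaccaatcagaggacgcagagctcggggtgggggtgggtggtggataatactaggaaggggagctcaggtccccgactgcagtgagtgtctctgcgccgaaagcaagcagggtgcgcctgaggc
The Pparg window holds 2 such matches, beginning 215 and 16 bases before the start, and the windows of Cebpa and Dmrt2 hold none. The only other of the 12 windows with this motif is the first of Zfp423, also with 2 matches, whereas 10.8% of all 32851 promoter windows hold at least 1. The EBF motif CCCNNGGG was found in 2 of the 12 windows, those of Cebpb and of the second Zfp423 start, against 13.7% of all windows. None of the 12 held the glucocorticoid receptor motif TGTTCT (19% of all windows), its palindrome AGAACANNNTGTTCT (0.00913%), which contains it, or the PPAR and RXR repeat AGGTCANAGGTCA (0.0396%). A match is a string of letters and no evidence of binding.

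At 6 h after CNO the mature adipocyte pair Pparg and Cebpa was lower in fat of TG mice, Pparg to 49.5% and Cebpa to 68.9% of the WT mean. Cebpd, the early C/EBP factor, was 4.06-fold higher, while Cebpb, its usual companion, showed no change past the threshold. Both Ebf1 and Ebf2 fell, Zfp423 was slightly higher, and Dmrt2 had the steepest fall of the 9, to 36.7% of the WT mean. In all, 7 of the 9 genes were called, 2 higher and 5 lower, beside 14.4% of the 14359 genes tested (6.88% higher and 7.54% lower). An unadjusted p under 0.05 was found for 8 of the 9 and 26.6% of all genes. The TG and WT libraries did not overlap for 4 of the 9 (Pparg, Cebpa, Cebpd and Dmrt2), beside 7.66% of all genes tested. The median log2 change of the 9 was -0.33, and that of all genes tested was 0.00. Because the 9 were chosen with earlier results of these data known, the shares beside all genes are a description and no test.

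**Figure D1:**
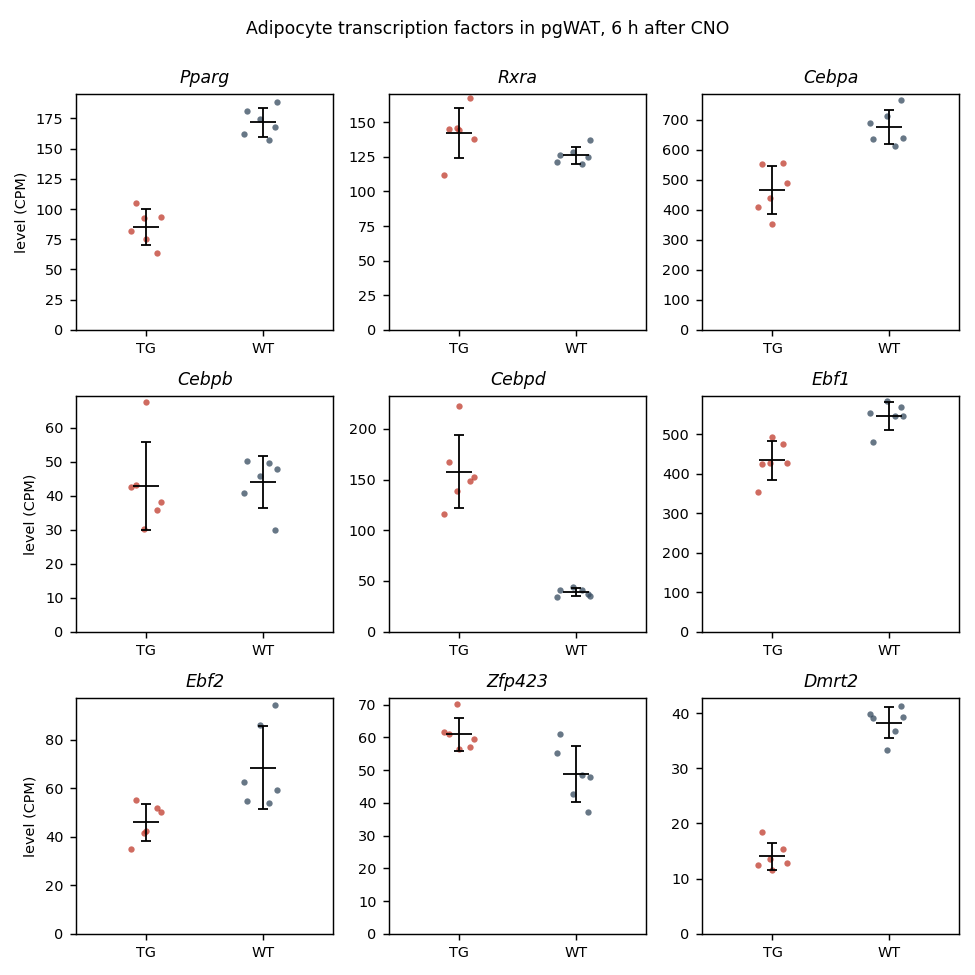
Level in CPM (vertical axes, from 0) of each factor in pgWAT 6 h after CNO, TG left and WT right; points are libraries (6 per genotype) and bars the mean and SD. Every TG library lay below every WT library for Pparg, Cebpa and Dmrt2 and above every WT library for Cebpd, while the genotypes overlap for the other 5.

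Pparg (ENSMUSG00000000440, GRCm38 chromosome 6, 115360951 to 115490399, GENCODE vM21) ranged from 63.3 to 105 CPM in TG libraries (median 87.0) and from 157 to 189 CPM in WT libraries (median 171). All 6 TG libraries lay below the lowest WT library, and the gap between the genotypes was wider than either group's own range. The mean was 85.1 ± 14.8 CPM in TG and 172 ± 12.0 CPM in WT (SD, n = 6 each), a log2 change of -1.01 (SE 0.10, adjusted p = 2.09e-06). Its 7 annotated transcripts include the isoform of ordinary tissues and the adipocyte isoform, which share their last exons, so counts of 3′ ends cannot separate them. Rxra (chromosome 2, 27676440 to 27762957), the partner with which PPAR gamma binds DNA, stood at 112 to 168 CPM in TG (median 145) and 120 to 137 CPM in WT (median 125). Of the TG libraries 5 lay above the highest WT library and 1, TG 1, below the lowest. The change of 0.17 (SE 0.08, 95% interval 0.02 to 0.32) did not pass (adjusted p = 0.164), and it did pass without TG 1 (0.23, adjusted p = 0.0187). Thus the receptor was lower while its partner was not called in either direction over the 12 libraries.

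Cebpa (ENSMUSG00000034957, chromosome 7, 35119293 to 35121928), which sustains Pparg in mature fat cells and is needed for their insulin sensitivity, had 353 to 556 CPM in TG (median 463) and 613 to 764 CPM in WT (median 664). The highest TG library, TG 3, was still below the lowest WT library. Mean levels were 465 ± 80.7 CPM in TG and 676 ± 57.0 CPM in WT, a change of -0.54 (SE 0.10, adjusted p = 0.00137). Cebpd (chromosome 16, 15887286 to 15891031), a C/EBP factor that glucocorticoids and inflammatory signals are known to induce, moved the other way. It had 116 to 223 CPM in TG (median 150) and 33.8 to 44.0 CPM in WT (median 39.0). The lowest TG library held more than the highest WT library by a wide margin, and the TG libraries were also more spread out (SD 36.1 CPM in TG and 3.87 CPM in WT). The change of 2.02 (SE 0.13, adjusted p = 1.21e-07) was the largest of the 9 in size, and 0.369% of all genes tested had a larger one in either direction. Cebpb (chromosome 2, 167688915 to 167690418), which shares the early role with Cebpd and is known from macrophages and liver as well as fat, had 30.1 to 67.4 CPM in TG (median 40.3) and 29.8 to 50.3 CPM in WT (median 46.9). The 2 ranges overlap throughout, with TG 5 alone above the rest, and the change of -0.04 (SE 0.18, 95% interval -0.39 to 0.32, adjusted p = 0.924) did not pass. Its sign turned without TG 3, TG 6 or WT 3, so no direction can be given for Cebpb.

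The counts of 3 factors have a limit of annotation. The 3′ ends of Cebpb, Cebpd and Ebf2 each overlap a gene on the other strand, Tmem189, Spidr and Gm10860, and the sources used here do not give the strand setting of the count. Spidr, a gene of DNA repair, had 5.75 ± 0.79 CPM in TG and 6.00 ± 1.16 CPM in WT at 6 h (change -0.06, adjusted p = 0.851). Tmem189 had 51.6 ± 3.41 CPM in TG and 42.5 ± 4.65 CPM in WT (change 0.28, adjusted p = 0.0221), and Gm10860 had too few counts to be tested. Their part in the counts of the 3 factors was not tested. Macrophage marker transcripts, which matter because macrophages express both Cebpb and Cebpd, summed to 756 to 1526 CPM in TG and 749 to 1142 CPM in WT, and 0 of the 7 macrophage markers passed.

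Among the factors of the precursor stage, Ebf1 (chromosome 11, 44617317 to 45008091), which promotes Pparg and Cebpa in fat and is also the factor that commits B cells, had 355 to 493 CPM in TG (median 428) and 481 to 586 CPM in WT (median 551). Of the 6 TG libraries 5 lay below the lowest WT library, WT 3, and only TG 5 reached into the WT range. The change was -0.33 (SE 0.08, adjusted p = 0.00592). Lymphocyte marker transcripts were few, 2.90 to 7.59 CPM in TG and 6.40 to 22.8 CPM in WT, with 0 of the 2 tested markers called, and their part in the change of Ebf1 was not tested. Ebf2 (chromosome 14, 67233292 to 67430918), which opens the chromatin of brown and beige fat genes, had 34.9 to 55.1 CPM in TG (median 46.2) and 53.9 to 94.1 CPM in WT (median 61.01). Again 5 TG libraries lay below the lowest WT library, and 2 WT libraries, WT 2 and WT 6, stood well above the others. The change of -0.58 (SE 0.16, adjusted p = 0.0241) passed narrowly and was not called without TG 5, TG 6 or WT 6 (largest adjusted p 0.0544) nor without a filter on low counts (adjusted p = 0.0725). Zfp423 (chromosome 8, 87661810 to 87959595, minus strand), the zinc finger factor that keeps white adipocytes from a thermogenic state, had 56.4 to 70.3 CPM in TG (median 60.2) and 37.3 to 61.2 CPM in WT (median 48.2). All 6 TG libraries lay above the WT mean, but only 2 lay above the highest WT library. Its change of 0.32 (SE 0.10, adjusted p = 0.0406) is the most fragile call of the 7. The call was lost when libraries were scaled to their totals without TMM (0.25, adjusted p = 0.174) or to spike-ins (0.28, adjusted p = 0.176), and when any of 9 of the 12 libraries was left out (largest adjusted p 0.0994, with TG 5, WT 3 and WT 4 as the exceptions).

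Dmrt2 (ENSMUSG00000048138, chromosome 19, 25672411 to 25678991) had 11.6 to 18.4 CPM in TG (median 13.3) and 33.4 to 41.3 CPM in WT (median 39.2). Both groups were tight and far apart, and the highest TG library, TG 4, lay well below the lowest WT library, WT 6. The raw counts per library behind these levels lay between 130 and 480. Mean levels were 14.1 ± 2.47 CPM in TG and 38.3 ± 2.79 CPM in WT, a change of -1.44 (SE 0.11, adjusted p = 6.71e-08). Dmrt2 ranked 21 of the 14359 genes by p, ahead of Cebpd at 27 and Pparg at 82. Of its 6 relatives with a DM domain in the list used here, only Dmrta2 was abundant enough to test, at 1.00 ± 0.56 CPM in TG and 0.88 ± 0.23 CPM in WT, and it was not called in edgeR (adjusted p = 0.802) or DESeq2.

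Among markers of the cells that carry these factors, 1 of 7 for adipocytes and 1 of 9 for precursors was called higher at 6 h. As many of each were called lower, beside 6.88% of all genes called higher and 7.54% called lower. Adipocyte marker transcripts summed to 28271 to 36241 CPM in TG and 29671 to 39512 CPM in WT. Of the 7 markers, 1 rose, the lipid droplet gene Cidec (0.38), and 1 fell, the beta-3 adrenergic receptor gene Adrb3 (-2.20, adjusted p = 9.92e-04), whereas Adipoq, the adiponectin gene, had 4950 ± 613 CPM in TG and 5250 ± 297 CPM in WT (change -0.09, adjusted p = 0.578; -0.18, adjusted p = 0.0497, with the mean of the adipocyte markers other than Adrb3 as a covariate, a mean that includes Adipoq itself). Precursor markers summed to 856 to 1058 CPM in TG and 887 to 988 CPM in WT, and of the 9 markers 1 rose, Mfap5 (0.34, adjusted p = 0.0110), and 1 fell, Icam1 (-0.74, adjusted p = 0.00541), both named after their values were seen. Skeletal muscle transcripts summed to 65.0 to 125 CPM in TG and 27.9 to 56.8 CPM in WT, with no overlap. Of the 7 muscle markers 3 could be tested and 1 was called, higher in TG, and the median log2 change was 0.09. The part of muscle transcripts in the results was not tested. With the mean of the adipocyte markers other than Adrb3 as a covariate, the same count of 7 of the 9 was called. With Adrb3 in the covariate, which then differed between the genotypes (11.04 ± 0.18 in TG and 11.3 ± 0.16 in WT as mean log2 CPM), Ebf1 (-0.19, adjusted p = 0.0919), Ebf2 (-0.21, adjusted p = 0.242) and Zfp423 (0.16, adjusted p = 0.355) were not called and Rxra was (0.28, adjusted p = 0.0239). Pparg, Cebpa, Cebpd and Dmrt2 kept their direction and their call under each of the 9 alternative settings and with each of the 12 libraries left out.

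**Figure D2:**
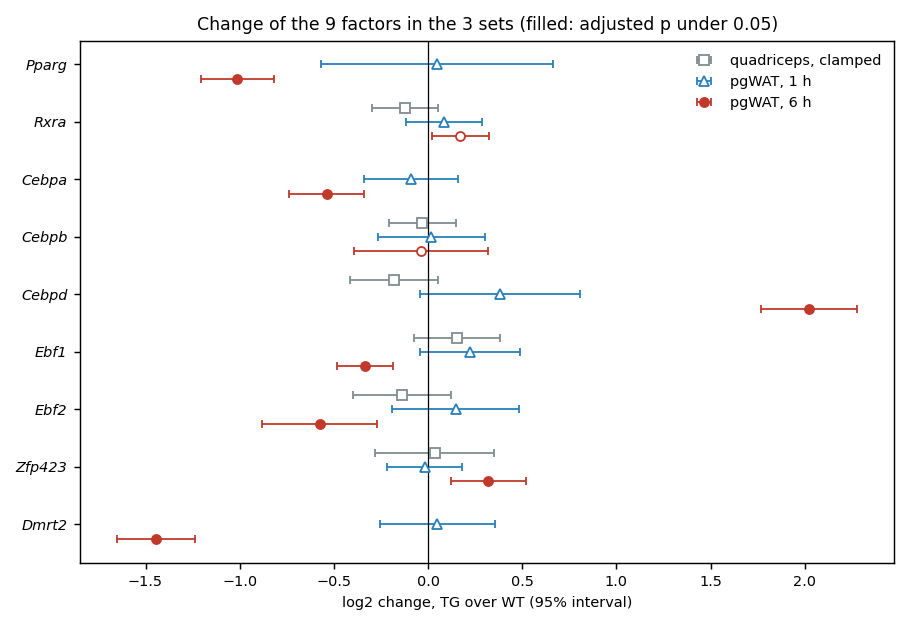
Change of each factor (log2 of TG over WT, horizontal axis, with a normal 95% interval) in quadriceps (squares), pgWAT at 1 h (triangles) and pgWAT at 6 h (circles); filled symbols passed an adjusted p of 0.05. Filled symbols occur at 6 h alone, from -1.44 for Dmrt2 to 2.02 for Cebpd, and Pparg, Cebpa and Dmrt2 have no square because they were too rare in quadriceps to test.

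At 1 h after CNO none of the 9 factors was called, beside 0.0722% of the 11087 genes tested. All 9 could be tested, 0 had an unadjusted p under 0.05 in edgeR (4.62% of all genes did), DESeq2 called 0, and no factor had groups that did not overlap (0.0361% of all genes tested). Changes ran from -0.09 to 0.38, and their SE from 0.10 to 0.31. Pparg had 51.4 to 170 CPM in TG (median 103) and 23.0 to 157 CPM in WT (median 85.1), and each group spread over most of the range of the other. Its change was 0.05 with a 95% interval of -0.57 to 0.66. It was -0.40 without the 9 libraries rich in liver or duct transcripts, a fit that kept 6 TG and 3 WT libraries. Thus no direction can be given for Pparg at 1 h. Cebpa was at 358 ± 69.9 CPM in TG and 380 ± 76.96 CPM in WT (SD, n = 9 each; change -0.09, 95% interval -0.34 to 0.16). Dmrt2 was at 48.9 ± 11.6 CPM in TG and 47.2 ± 12.1 CPM in WT (change 0.05, 95% interval -0.26 to 0.36).

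Cebpd was the member with the largest difference at 1 h. It had 59.01 to 105 CPM in TG (median 73.9) and 34.2 to 142 CPM in WT (median 56.5), and 8 of the 9 TG libraries lay above the WT mean. The WT group was stretched by WT 3, whose 142 CPM was the highest value in either genotype and whose neighbour stood at 71.1 CPM. The change of 0.38 (SE 0.22, adjusted p = 1.00) did not pass. Without WT 3 it was 0.63 (adjusted p = 0.203), and without the 9 libraries rich in liver or duct transcripts 0.13 (adjusted p = 1.00). The latter fit kept 6 TG and 3 WT libraries, with WT 3 among them. Rxra, Cebpb, Ebf1, Ebf2 and Zfp423 changed by 0.08, 0.02, 0.22, 0.15 and -0.02 on the log2 scale, each with an interval that spans 0. The Ebf2 value rests on TG 9, at 226 CPM against at most 130 CPM in the other TG libraries, and it was -0.02 without TG 9.

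**Figure D3:**
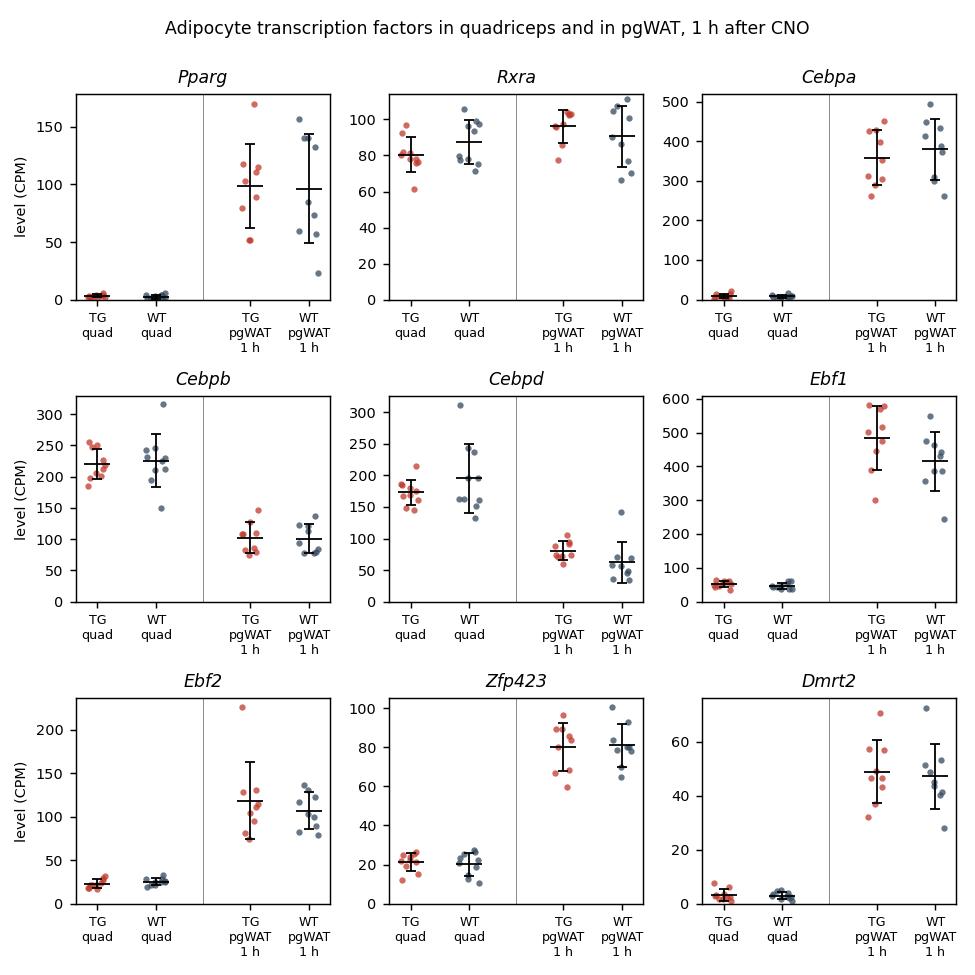
Level in CPM (vertical axes, from 0) of each factor in quadriceps (10 libraries per genotype, left of the line) and in pgWAT 1 h after CNO (9 per genotype, right of the line), TG left of WT in each; bars show the mean and SD. TG and WT overlap in every panel, and Pparg, Cebpa and Dmrt2 are close to 0 in quadriceps.

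In whole quadriceps 6 of the factors had enough counts to test and 3 did not. Adipocyte marker transcripts summed to 541 to 1110 CPM in TG and 401 to 1247 CPM in WT in this tissue. Which cells the factors came from was not tested. Pparg had 0 to 11 counts per library, Cebpa 3 to 27 and Dmrt2 1 to 9, which left these 3 under the filter on low counts, with group means of 3.13 CPM in TG and 2.46 CPM in WT for Pparg, 8.99 and 8.25 CPM for Cebpa and 3.25 and 2.97 CPM for Dmrt2. A count of 3 corresponds to 1.15 to 3.13 CPM in these libraries, so most single values of Pparg and Dmrt2 sit near the limit of counting. Of the 6 factors tested 0 were called, beside 2.03% of the 8070 genes tested, 0 had an unadjusted p under 0.05 (11.7% of all genes did), DESeq2 called 0, and all overlapped between the genotypes (0.297% of all genes did not). Cebpb was at 220 ± 24.4 CPM in TG and 226 ± 42.4 CPM in WT (SD, n = 10 each; change -0.03, 95% interval -0.21 to 0.15). Cebpd had 145 to 214 CPM in TG (median 172) and 133 to 312 CPM in WT (median 179). Among the WT libraries the highest, WT 10, and the next, WT 2, are those rich in heat shock transcripts. The change of Cebpd was -0.18 (SE 0.12, adjusted p = 0.639) with all libraries and -0.03 without WT 2 and WT 10. Rxra, Ebf1, Ebf2 and Zfp423 changed by -0.12, 0.15, -0.14 and 0.04, none past the threshold.

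Whether the genotype difference itself differed between sets was tested as an interaction. Between pgWAT at 6 h and at 1 h, 2 of the 9 were called, beside 4.21% of 13022 genes. The change of Cebpd was larger at 6 h by 1.63 (SE 0.29, adjusted p = 4.25e-04) and that of Dmrt2 lower by 1.49 in log2 units (interaction -1.49, SE 0.21, adjusted p = 2.19e-05). For Pparg the estimate was as large as -1.06, but its SE of 0.39, from the spread at 1 h, left it short of the threshold (adjusted p = 0.143), and those of Ebf1 (-0.55, adjusted p = 0.0905), Ebf2 (-0.72, adjusted p = 0.122) and Cebpa (-0.45, adjusted p = 0.219) were short of it too. The 1 h and 6 h libraries were made with different kits and differed in depth, so time, kit and depth cannot be told apart in these interactions, nor in levels such as a WT mean of 96.4 CPM at 1 h and 172 CPM at 6 h for Pparg or 62.5 and 38.8 CPM for Cebpd. Between pgWAT at 6 h and quadriceps, 4 of the 9 were called, beside 5.06% of 10729 genes: Cebpd (2.18, adjusted p = 1.62e-10), Dmrt2 (-1.60, adjusted p = 0.00186), Ebf1 (-0.51, adjusted p = 0.0220) and Pparg (-1.22, adjusted p = 0.0356). The calls of Ebf1 and Pparg were lost without a filter on low counts (adjusted p = 0.0543 and 0.0553), and Pparg and Dmrt2 had few counts in muscle. Tissue, kit, time and the clamp differ together in this comparison and cannot be told apart.

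The partners and helpers of these factors changed in part at 6 h, as far as 7 lists of related genes show. The 103 entries of the lists held 94 that could be tested, of which 10 were higher and 21 lower, beside 6.88% higher and 7.54% lower over all genes tested. None of the 6 nuclear receptor partners (Rxrb, Rxrg, Ppara, Ppard, Nr1h2 and Nr1h3) was called by edgeR or DESeq2, and 1 had an unadjusted p under 0.05 (26.6% of all genes did). Of 8 C/EBP relatives and regulators 1 rose and 3 fell, with a median of -0.20. Ddit3, a C/EBP relative that forms pairs unable to bind usual C/EBP sites, was at 22.1 ± 5.58 CPM in TG and 35.4 ± 5.03 CPM in WT (change -0.68, adjusted p = 0.00497). Trib2, which in the mouse marks C/EBP alpha for degradation, changed by -0.71 (adjusted p = 0.0122; -0.50, adjusted p = 0.107, with the full adipocyte covariate), and Creb1, which turns on Cebpb in differentiating cells, by -0.37 (adjusted p = 0.00336). Atf4, a stress factor that pairs with C/EBPs, rose by 0.26 (adjusted p = 0.0454) and was not called without any of 8 libraries or under 4 of the other settings.

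Coregulators showed 1 rise and 2 falls among 17 tested, close to the 14.4% called over all genes. Ppargc1b, a coactivator of nuclear receptors that drives mitochondrial genes, had 8.28 ± 2.27 CPM in TG and 20.9 ± 5.60 CPM in WT (change -1.34, adjusted p = 3.30e-04). Its relative Ppargc1a changed by -1.18 (adjusted p = 0.0238), a call lost without TG 1, TG 4, TG 5 or WT 6 (largest adjusted p 0.0552), without a filter on low counts and with the full adipocyte covariate (-0.53, adjusted p = 0.310), while the steroid receptor coactivator gene Ncoa1 changed by 0.48 (adjusted p = 3.39e-04). The corepressor gene Ncor1, the mediator subunit Med1 and the acetyltransferases Ep300 and Crebbp, picked after their values were seen, were not called.

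Among 17 tested adipogenic factors 3 rose and 7 fell, beside 6.88% of all genes called higher and 7.54% called lower. Zbtb16, a zinc finger factor known to respond to glucocorticoids, had the largest change of the list, with 152 ± 19.8 CPM in TG and 47.2 ± 11.8 CPM in WT (change 1.69, adjusted p = 4.35e-06). The glucocorticoid receptor gene Nr3c1 itself was at 89.1 ± 7.19 CPM in TG and 137 ± 12.9 CPM in WT (change -0.62, adjusted p = 1.89e-05). Stat5a, which carries growth hormone and prolactin signals to Pparg, changed by -0.74 (adjusted p = 3.16e-05), and Zfp467, a zinc finger factor that favours fat over bone in mouse marrow precursors, by -1.03 (adjusted p = 3.16e-05). The anti-adipogenic list also had more falls than rises, with 1 higher and 6 lower of 15 tested, beside the same shares of all genes. Its median was -0.32 (-0.19 for the adipogenic list). Sox9, which represses Cebpb and Cebpd in precursors, was at 8.98 ± 2.34 CPM in TG and 24.6 ± 3.88 CPM in WT (change -1.45, adjusted p = 5.67e-06). Hes1 changed by -0.62 (adjusted p = 2.15e-04) and Klf3, a repressor of Cebpa, by -0.32 (adjusted p = 0.00643), while Foxo1, a forkhead factor that binds and restrains Pparg and is switched off by insulin, was at 254 ± 43.9 CPM in TG and 127 ± 11.7 CPM in WT (change 1.00, adjusted p = 5.77e-06). The count of 6 was 3 without TG 5.

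**Figure D4:**
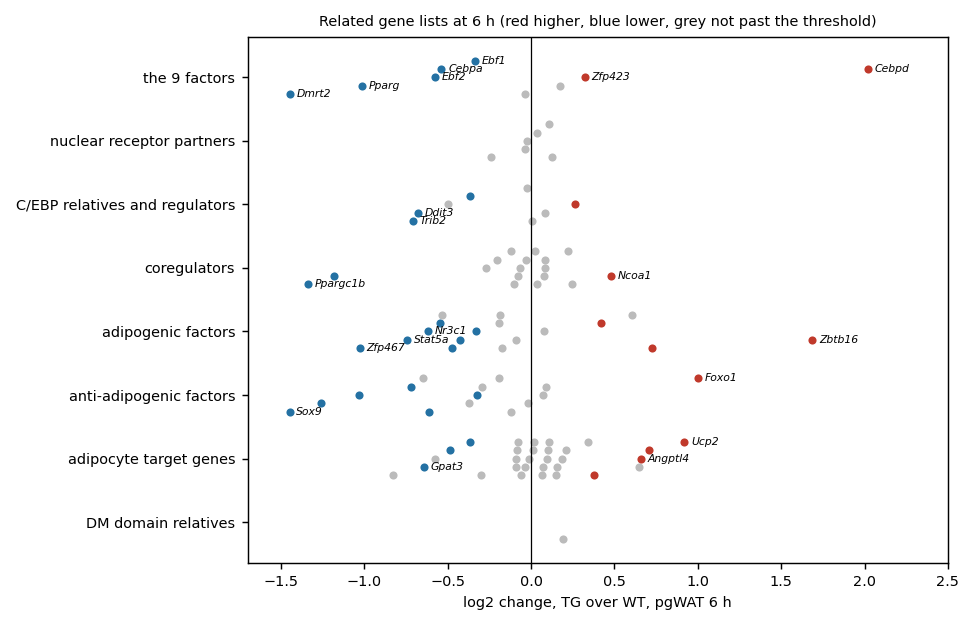
Change (log2 of TG over WT, horizontal axis) of each tested gene of 7 lists and of the 9 factors in pgWAT at 6 h; each point is a gene, red where called higher, blue where called lower and grey where not called, and its height within a row has no meaning. Of the 30 adipocyte target genes (median 0.04) 4 are red and 3 blue, beside 6.88% of all genes called higher and 7.54% called lower. The 9 factors, chosen with earlier results known, reach from -1.44 to 2.02.

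Genes that PPAR gamma and C/EBP alpha are known to activate in fat cells changed in both directions. Of 30 target genes, all tested, 4 rose, 3 fell and 23 did not pass, beside 6.88% of all genes called higher and 7.54% called lower, with a median of 0.04 beside 0.00 for all genes. Angptl4, an inhibitor of lipoprotein lipase, was at 604 ± 64.2 CPM in TG and 382 ± 69.4 CPM in WT (change 0.66, adjusted p = 7.44e-04). The uncoupling protein gene Ucp2 changed by 0.92 (adjusted p = 0.00153) and Lpin1, a phosphatidate phosphatase and coactivator, by 0.71 (adjusted p = 0.00146). Gpat3, which starts triglyceride synthesis, was at 52.5 ± 9.71 CPM in TG and 82.1 ± 8.12 CPM in WT (change -0.64, adjusted p = 0.00109). Cidec and Adipor2, which were also called, and the following 3 that were not called are named after their values were seen. Fabp4, the fatty acid binding protein of fat, changed by -0.01 (SE 0.10), the lipid droplet coat gene Plin1 by -0.03 (SE 0.08) and the lipase gene Lpl by 0.10 (SE 0.08). With the adipocyte marker mean without Adrb3 as a covariate, 7 targets in place of 3 were called lower. That mean includes Adipoq, Plin1, Cidec, Lipe and Fabp4, which are targets themselves, so this count is not independent of the covariate and no conclusion is drawn from it.

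In the other sets fewer entries passed. At 1 h edgeR and DESeq2 called 0 of the 89 entries tested (0.0722% of all genes were called by edgeR), with 5 at an unadjusted p under 0.05 in edgeR (4.62% of all genes). In quadriceps 1 rose and 1 fell of 76 tested, beside 2.03% of all genes called, and 21 had an unadjusted p under 0.05, beside 11.7%. Creb1, which was also lower in fat at 6 h, was lower in TG muscle (change -0.58) under each of 9 alternatives, and Hes1, which was lower in fat, was higher (change 0.85), a call lost when any of 9 libraries was left out (adjusted p up to 0.0636) and under 3 of the alternatives (adjusted p up to 0.0831).

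Genes whose levels ran closest to a called factor over the 30 pgWAT libraries were found by the root mean square difference of log2 CPM, centred within each pgWAT set, over 10516 genes. Dmrt2 was followed most closely by the homeobox gene Hoxc6 (difference 0.23, where the spread of Dmrt2 itself was 0.52), then by Pfkfb3 (0.25), which makes the activator of phosphofructokinase, and C9orf72 (0.25). Hoxc6 changed by -1.12 at 6 h and by 0.00 at 1 h, beside -1.44 and 0.05 for Dmrt2. Nearest to Cebpd, with a spread of 0.75, were Mbd1 (0.33), a reader of methylated DNA, Alkal2 (0.36), a ligand of the receptor ALK, and the metallothionein gene Mt1 (0.38), which changed by 1.84, 1.94 and 2.21 at 6 h. Nearest to Cebpa, with a spread of 0.30, were the hexokinase gene Hk2 (0.16), Blcap (0.18) and the kinase gene Mknk2 (0.18), with changes of -0.73, -0.50 and -0.40. Nearest to Pparg, with a spread of 0.64, were Prkci (0.34), an atypical protein kinase C, Igf2r (0.34) and Rasa2 (0.36), with changes of -0.36, -0.28 and -0.52. The call of Igf2r (adjusted p = 0.0403 in edgeR) was lost when any of 9 of the 12 libraries was left out. The closest genes to Ebf1, Ebf2 and Zfp423 were Thrb (0.14), Ssbp3 (0.24) and 1810058I24Rik (0.14). Of these, Thrb was not called at 6 h (change -0.27, adjusted p = 0.213 in edgeR). The genes compared share their libraries, genotype groups, tissue and depth, so likeness here is a description.

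As a check on the 6 h response, Fkbp5, a classic glucocorticoid-induced gene, had 432 ± 52.7 CPM in TG and 51.1 ± 12.3 CPM in WT (change 3.08, adjusted p = 3.97e-09), beside a change of 0.35 at 1 h and 0.26 in quadriceps, neither past the threshold.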

How the data were processed

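The deposited values are raw gene counts in 3 tables, 1 per set, which the authors made from QuantSeq FWD 3′ libraries. Per the labels' protocols a module adding molecular identifiers was used for quadriceps and pgWAT at 1 h, and the plain kit for pgWAT at 6 h. The submitters' processing notes name STAR 2.7.10, cutadapt 1.18, UMI-tools 1.1.2 and bcl2fastq 2.20.0.422 without order, and the builds GRCm38 and GRCm39. The sources used here do not give the counting program, its strand setting or the build of each table. Gene rows held a mean of 99.8% of the counts at 6 h, 65.3% at 1 h and 74.9% in quadriceps, and the other rows were left out.

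Libraries were grouped by title; TG replicate 10 of quadriceps has a treatment entry of 1 h, and its title was followed. Each set was tested with edgeR 4.0.16 in R 4.3.3 (filterByExpr by genotype, TMM, robust quasi-likelihood F test, Benjamini-Hochberg over all genes), with DESeq2 1.42.0 as an alternative. SE is the absolute log2 change over the square root of F, and limits and intervals cover counting error or library spread only. Symbols were joined through the 6 h table on identifiers without version, and positions are from GENCODE vM21. No library pair was identical, and same-numbered libraries were not treated as pairs. The script was tested on simulated data.

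The members and lists were chosen with earlier results of these data known. Named genes are the 9 factors, up to 4 called genes per list with the smallest p and a mean of at least 5 CPM, the 3 nearest genes of each factor called at 6 h, and Adipoq and Fkbp5. Libraries in doubt, scaling by totals or spike-ins and the covariate without Adrb3 were alternatives chosen after seeing the data. Libraries in doubt exceeded 5 times the median of their set and 50 CPM in summed liver, duct or inducible heat shock transcripts. Some genes of the lists are not reported here by name.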

Additional observations from a re-analysis of the deposited data

Results flagged for a closer look

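Among 54 groups of libraries of 1 factor in 1 set, 5 held a library far from the others; chance alone gives about 1 in 20 such groups, and the causes were not tested. Cebpd in pgWAT at 1 h reached 142 CPM in WT 3. Ebf2 at 1 h reached 226 CPM in TG 9, a library whose precursor, macrophage and mesothelial marker transcripts (1887, 1683 and 454 CPM) were each the highest of the 9 TG libraries. In pgWAT at 6 h, Cebpb reached 67.4 CPM in TG 5, Zfp423 reached 70.3 CPM in TG 6, and Ebf1 was lowest among WT libraries in WT 3, at 481 CPM.

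The TG against WT change differed between pgWAT at 6 h and at 1 h, by the interaction test, for Cebpd (1.63) and Dmrt2 (-1.49). It differed between pgWAT at 6 h and quadriceps for Cebpd (2.18), Dmrt2 (-1.60), Pparg (-1.22) and Ebf1 (-0.51). The calls of Pparg and Ebf1 were lost without a filter on low counts. Over all genes tested, 4.21% were called in the time and 5.06% in the tissue interaction. Kit and depth differ with time, and kit, time and the clamp differ with tissue, so these cannot be told apart.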

How the results depend on the processing

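At 6 h the count of factors called was 5 to 7 under 9 alternatives and 5 to 7 with a library left out. In quadriceps and at 1 h it was 0 throughout. With the replicate number as a block the counts were 6 at 6 h, where Zfp423 was not called (0.33, adjusted p = 0.0551), 0 at 1 h and 0 in quadriceps. Whether the numbers pair the libraries cannot be settled from the counts. Of the same-numbered pairs 1 of 6, 4 of 9 and 3 of 10 had correlated deviations over 0.1, at most 0.37 (number 5 at 1 h). In each set 2 libraries correlated best with their own number. The block gave 1874, 5 and 144 called genes.

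The 8 genes called at 1 h were 5 without a filter on low counts, 19 with DESeq2, 3 with the remainder of the library number as a factor, 17 with the adipocyte covariate without Adrb3, 1 without libraries in doubt and 3 to 12 with a library left out; the causes were not tested. The 4 factors called between the tissues were 2 without a filter. Changes near 0 that turned sign, none called before or after, were at 1 h Pparg (-0.082 with the library number, -0.40 without libraries in doubt), Cebpa (0.014 without libraries in doubt), Cebpb (-0.012 with the adipocyte covariate, -0.023 with it without Adrb3, -0.041 with the library number, -0.078 without libraries in doubt, -0.027 without TMM), Ebf2 (-0.0046) and Zfp423 (0.060) with the library number, and Dmrt2 (-0.0037 with the covariate without Adrb3, -0.014 with the library number, -0.14 without libraries in doubt). At 6 h they were Cebpb (0.082) with the covariate without Adrb3, and Adipoq (0.075) and Atp6v0d1 (-0.027) with the full covariate. With a library left out, the ranges that span 0 were Pparg -0.090 to 0.17, Cebpb -0.056 to 0.083, Ebf2 -0.023 to 0.21, Zfp423 -0.053 to 0.027 and Dmrt2 -0.037 to 0.16 at 1 h, Cebpb -0.22 to 0.049 at 6 h, and Cebpb -0.090 to 0.035 and Zfp423 -0.028 to 0.12 in quadriceps.

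Depth limits the factors in quadriceps, where Pparg, Cebpa and Dmrt2 could not be tested, and the spread between libraries limits Pparg at 1 h.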
